A study of Rattus norvegicus with 164 samples.

Results

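The mRNA of 10 genes of the circadian clock was followed in the prelimbic cortex, a medial prefrontal region, of heterogeneous stock rats. The genes were chosen by name: Per1, Per2, Per3, Cry1, Cry2, Dbp, Tef, Nr1d1, Nr1d2 and Bmal1. All 10 were found among the 38354 genes of the table, and all 10 passed the filter on low values, a mean of at least 1 on the log2 scale used here. Heterogeneous stock rats are outbred animals descended from crosses of inbred strains, and every library carries the identifier of a different rat. The study was designed for genetic analysis of expression in 3 brain regions. Of the 130 libraries, 68 have an identifier that is a decimal number, 11 have a code starting with E21DCD that was reassigned according to the labels, and 51 have such a code without that remark. They are called decimal, reassigned and E21DCD libraries. The sources used here give neither treatment, age, sex nor batch of any rat, and no hour at which tissue was taken. Each library is bulk polyA RNA of dissected tissue, and beyond the separate identifiers nothing states how the rats were housed or processed.

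The clock is a loop of transcription. BMAL1 and CLOCK pair and bind E-box sequences, which turns on the Per and Cry genes, the Nr1d genes and Dbp; the PER and CRY proteins then return to the nucleus and inhibit BMAL1 and CLOCK. NR1D1 and NR1D2, also called REV-ERB alpha and beta, repress Bmal1 through RORE sequences, and DBP and TEF act on D-box sequences. In nocturnal rodents Bmal1 mRNA is therefore known to peak at about the opposite time of day from Dbp, Nr1d1 and the Per genes, also outside the master clock of the suprachiasmatic nucleus, while Cry1 mRNA lags behind the other E-box genes. Per1 is in addition known to respond to neuronal activity and to glucocorticoids.

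Levels are given as log2 of CPM plus 1, where CPM are estimated counts scaled to a sum of 1000000 per library, which is not corrected for transcript length, so levels of different genes are not ranked against each other. Pooled correlations need 1 kind of tissue, and 18 libraries stood apart. In 11, all decimal, Drd2, a dopamine receptor of striatal neurons, lay between 7.25 and 7.90, against 4.65 at most in the rest. In 7 more (decimal replicate 15 and 6 E21DCD libraries) Gad2, a GABA-synthesising enzyme of interneurons, lay between 2.37 and 4.27, against 5.14 at the lowest in the remaining libraries. The remaining 112, called cortical libraries (56 decimal, 11 reassigned and 45 E21DCD), carry the results unless stated otherwise. Their summed counts ran from 16.9 to 55.95 in units of 1000000, with a median of 26.2. Among the 10 clock genes the smallest estimated count in a cortical library was 169, for Cry1, and the smallest for Tef was 5141. The cortical libraries held transcripts of glutamatergic neurons, with a summed marker level of 12.31 to 12.85 in decimal, 12.33 to 12.55 in reassigned and 12.40 to 12.60 in E21DCD libraries, and of glia, vessels and meninges. In such bulk samples, fewer cells that express a gene and less RNA of it per cell cannot be told apart.

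Promoters were looked at because several of the 10 genes moved together. RefSeq (GRCr8) windows of 250 bases before to 50 bases after a start site were at hand for 9 genes, with 10 windows, since Nr1d1 has 2. Searched on both strands were the E-box CACGTG, the D-box TTATGTAA or TTACGTAA, the RORE core TNGGTCA and the cyclic AMP response element TGACGTCA. The E-box is in 6.42% of all 33469 windows of the rat table, the D-box in 1.01%, the RORE core in 11.1% and the cyclic AMP response element in 1.83%. The 4 windows below, with the matched letters in capitals, are shown because they are those in which a clock motif was found. Bmal1, read at chr1:176766078-176766377 (plus strand), has the RORE core from 16 bases upstream of the start. Per2, at chr9:99496944-99497243 (minus strand), has a D-box from 192 bases upstream. The second Nr1d1 window, at chr10:84229405-84229704 (minus strand), has an E-box from 191 bases upstream, and Tef, at chr7:115206577-115206876 (plus strand), has one from 198 bases upstream.
Bmal1: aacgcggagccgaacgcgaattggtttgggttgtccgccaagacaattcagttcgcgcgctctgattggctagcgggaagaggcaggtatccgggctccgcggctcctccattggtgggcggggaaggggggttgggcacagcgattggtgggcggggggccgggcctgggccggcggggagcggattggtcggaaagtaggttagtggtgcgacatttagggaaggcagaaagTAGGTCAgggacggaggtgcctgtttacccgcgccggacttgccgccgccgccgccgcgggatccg
Per2: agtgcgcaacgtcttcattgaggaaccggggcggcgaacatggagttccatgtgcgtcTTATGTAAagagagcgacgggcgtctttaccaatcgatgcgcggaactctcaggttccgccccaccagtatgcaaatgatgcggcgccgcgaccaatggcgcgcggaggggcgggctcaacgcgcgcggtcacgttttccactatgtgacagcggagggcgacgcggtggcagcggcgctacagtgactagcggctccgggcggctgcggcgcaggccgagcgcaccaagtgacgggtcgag
Nr1d1: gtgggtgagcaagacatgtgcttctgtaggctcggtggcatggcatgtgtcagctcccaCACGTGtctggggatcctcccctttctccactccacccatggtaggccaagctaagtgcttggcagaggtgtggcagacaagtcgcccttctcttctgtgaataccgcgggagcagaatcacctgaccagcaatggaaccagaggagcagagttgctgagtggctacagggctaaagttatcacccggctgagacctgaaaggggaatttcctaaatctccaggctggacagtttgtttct
Tef: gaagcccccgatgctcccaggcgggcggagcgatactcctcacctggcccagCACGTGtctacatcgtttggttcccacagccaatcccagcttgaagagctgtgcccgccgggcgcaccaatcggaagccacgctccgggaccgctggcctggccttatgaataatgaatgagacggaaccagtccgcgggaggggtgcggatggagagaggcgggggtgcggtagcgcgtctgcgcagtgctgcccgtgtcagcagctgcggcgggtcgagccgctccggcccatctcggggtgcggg
The other windows (Per1, Per3, Cry2, Dbp, Nr1d2 and the first of Nr1d1) held none of the motifs, and no window of these genes held the cyclic AMP response element. These windows begin at 1 annotated start each. The start was 9647 bp from the position in the deposited table for Tef, 5374 bp for Per1, 2358 bp for the second Nr1d1 window, 443 bp for Per3, 106 bp for Bmal1 and 76 bp for Per2, and equal to it for Dbp, Cry2, Nr1d2 and the first Nr1d1 window.

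The Per genes, Dbp and Bmal1 varied most between cortical libraries; Cry2 had the smallest range, and the Cry genes the smallest SD for their level. Per1, the period gene that also responds to activity, ran from 5.16 to 7.01 with a median of 6.30, a 3.63-fold range of CPM plus 1 between the lowest and the highest library. Its lowest 2 libraries were 1 E21DCD and 1 decimal library, so the low end was not particular to a group. Per2 ran from 4.90 to 6.32 (median 5.71, 2.67-fold) and Per3, the third period gene, from 4.40 to 5.69 (median 5.05, 2.45-fold). Dbp, an activating output factor, ran from 6.33 to 7.41 (median 6.81, 2.11-fold), and Bmal1, the activator of the loop, from 4.60 to 5.57 (median 5.24, 1.96-fold). The repressors Nr1d2 and Nr1d1 spanned 1.73-fold (6.06 to 6.84) and 1.67-fold (6.48 to 7.22). Cry1, a repressor of the loop, spanned 1.62-fold (3.33 to 4.02), Tef, a factor related to Dbp, 1.54-fold (8.00 to 8.62), and Cry2, the second cryptochrome, 1.35-fold (6.94 to 7.37). Divided by the SD usual for genes of that level (a lowess trend), the SD of Per1, 0.37, was 2.60 times the trend, higher than for 97.8% of the 15132 genes. The ratio was 1.57 for Per2, 1.51 for Dbp, 1.38 for Per3 and 1.26 for Bmal1, higher than for 88.0%, 86.4%, 81.8% and 75.8% of genes. It was 0.75 for Cry1 and 0.66 for Cry2, higher than for only 14.1% and 4.53% of genes. Nr1d1, Nr1d2 and Tef were near the trend, at 1.12, 1.02 and 0.92.

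**Figure D1:**
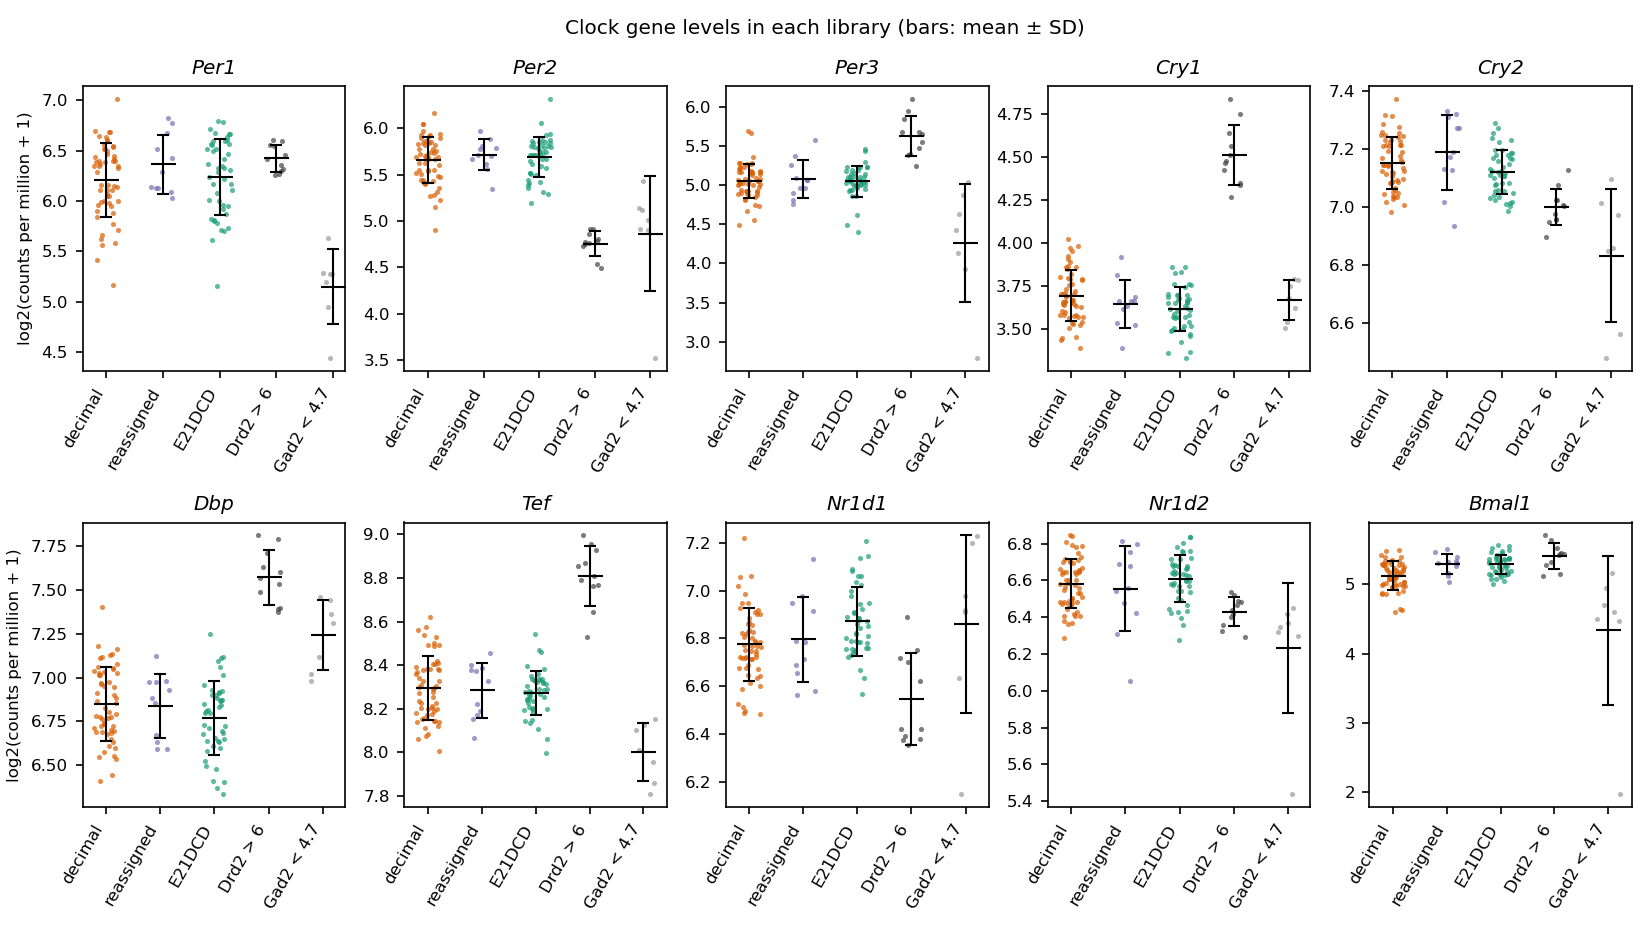
Level of each clock gene in each library, as log2(CPM + 1) on the y axis with its own range per panel. Points are libraries, in the 3 groups of cortical libraries and in the 11 with Drd2 above 6 and the 7 with Gad2 below 4.7, and bars are the mean ± SD; the 3 cortical groups overlap for every gene, while Cry1 lies at 4.27 to 4.84 in the 11 libraries, above all cortical ones.

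Across the 112 cortical libraries Bmal1 was low where Dbp was high, and Dbp and both Nr1d genes went up and down together. In all, 45 pairs of the 10 genes were correlated, with p from 100000 permutations of the libraries (two-sided, smallest possible 1e-05) and adjusted over the 45 pairs by Benjamini-Hochberg. Dbp and Bmal1 had r = -0.61 and rho = -0.66 (permutation p = 1e-05, adjusted 4.09e-05). The value was -0.57 in decimal, -0.76 in reassigned and -0.68 in E21DCD libraries alone, and -0.61 without the 2 libraries farthest in Dbp. The 4 libraries with the lowest Dbp (6.33 to 6.41) included the library with the highest Bmal1. Dbp and Nr1d2, a repressor of Bmal1, had r = 0.53 and rho = 0.57 (permutation p = 1e-05, adjusted 4.09e-05), with 0.49 in decimal, 0.81 in reassigned and 0.62 in E21DCD libraries. Nr1d1 and Nr1d2 had r = 0.51 and rho = 0.48 (permutation p = 1e-05, adjusted 4.09e-05), and Dbp and Nr1d1 r = 0.35 and rho = 0.35 (adjusted permutation p = 0.000312). Both repressors ran against Bmal1: Nr1d2 with r = -0.35 and rho = -0.37 (adjusted permutation p = 0.000562), Nr1d1 with r = -0.25 and rho = -0.28 (adjusted permutation p = 0.0146). Within groups the Nr1d1 value was -0.39 in decimal, -0.54 in reassigned and -0.45 in E21DCD libraries, each larger in size than the pooled value. After the mean levels of oligodendrocyte, glutamatergic and meningeal markers were regressed out, Bmal1 had r = -0.65 with Dbp, -0.62 with Nr1d2 and -0.45 with Nr1d1.

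**Figure D2:**
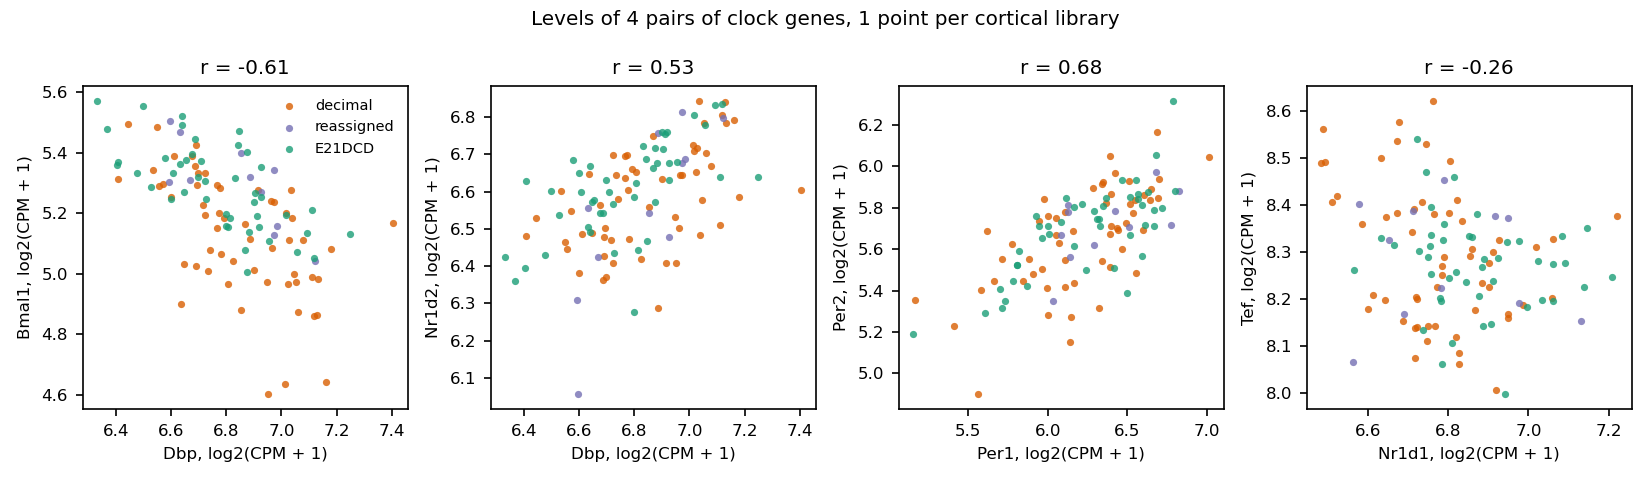
Levels of Bmal1 against Dbp, Nr1d2 against Dbp, Per2 against Per1 and Tef against Nr1d1, all as log2(CPM + 1), with 1 point per cortical library coloured by group and the pooled Pearson r above each panel. Bmal1 falls along Dbp (r = -0.61), Nr1d2 and Per2 climb along their partners (0.53 and 0.68), and Tef and Nr1d1 form a broad cloud (-0.26).

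The Per genes formed a second set of positive pairs, with Cry2 and in part Tef, and this set had little relation to Dbp. Per1 and Per2 had the highest value of all pairs, r = 0.68 and rho = 0.66 (permutation p = 1e-05, adjusted 4.09e-05), with 0.65 in decimal, 0.61 in reassigned and 0.74 in E21DCD libraries. Per2 and Cry2, a repressor that acts together with PER2, had r = 0.66 and rho = 0.66, and Per1 and Cry2 r = 0.56 and rho = 0.56 (permutation p = 1e-05, adjusted 4.09e-05 for both). Per3 had r = 0.47 with Per2, 0.46 with Per1 and 0.42 with Cry2 (rho = 0.54, 0.50 and 0.50; each permutation p = 1e-05, adjusted 4.09e-05). Per3 was also the Per gene that went with Dbp, at r = 0.35 and rho = 0.29 (adjusted permutation p = 0.000386). Dbp showed r = 0.12 with Per1 (rho = 0.11, adjusted permutation p = 0.285) and 0.04 with Per2 (rho = 0.07, adjusted permutation p = 0.767). Bmal1 showed r = -0.03 with Per1 (rho = -0.08, adjusted permutation p = 0.826), 0.16 with Per2 (rho = 0.02, 0.133) and -0.20 with Per3 (rho = -0.16, 0.0599), none past the threshold. In the pooled libraries Nr1d1 stood between the sets, with r = 0.34 with Per1, 0.28 with Per2 and 0.26 with Per3 (rho = 0.27, 0.22 and 0.26, with adjusted permutation p = 0.00045, 0.00815 and 0.0132). Within groups these pairs were less stable. Nr1d1 and Per2 passed in no group alone. Nr1d1 and Per3 did not pass in decimal or reassigned libraries alone, and Nr1d1 and Per1 not in reassigned libraries alone. Nr1d2 had r = 0.29 with Per3 and 0.24 with Per2 (rho = 0.30 and 0.26; adjusted permutation p = 0.00431 and 0.0226); after the cell type markers the value with Per2 was 0.21 and did not pass (0.0533).

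Tef went with part of the Per set and against Nr1d1, and Cry1 with Dbp alone. Tef rose with Cry2 (r = 0.46, rho = 0.47), Per2 (0.42, 0.42) and Per3 (0.38, 0.40), with adjusted permutation p of 4.09e-05, 4.09e-05 and 0.000112. With its relative Dbp it did not pass, at r = 0.02 and rho = -0.04 (adjusted permutation p = 0.826). Against Nr1d1 its value was negative, r = -0.26 and rho = -0.25 (adjusted permutation p = 0.0115), and with Bmal1 positive, r = 0.28 and rho = 0.32 (adjusted permutation p = 0.00647). The Tef and Bmal1 value was 0.19 after the cell type markers and 0.21 with median-of-ratios scaling, and passed under neither. None of the pairs of Tef with Cry2, Per2, Per3, Nr1d1 and Bmal1 passed in E21DCD libraries alone. Cry1 passed with 1 gene, Dbp, at r = 0.25 and rho = 0.24 (adjusted permutation p = 0.0146). That value was 0.43 in decimal libraries and -0.11 in E21DCD libraries, and 0.20 after the cell type markers (adjusted permutation p = 0.0607). The slope of Cry1 on Dbp differed between these groups by 0.37 ± 0.13 (SE, limma p = 0.00557, adjusted p = 0.878 over all genes), which did not pass. Over all cortical libraries, with group as a covariate, that slope was 0.15 ± 0.06 (SE, limma adjusted p = 0.138 over all genes) and did not pass either. No slope on Dbp of any of 15131 genes differed between decimal and E21DCD libraries (limma, 0% called; 808 at an unadjusted p under 0.05, lowest adjusted p = 0.829).

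**Figure D3:**
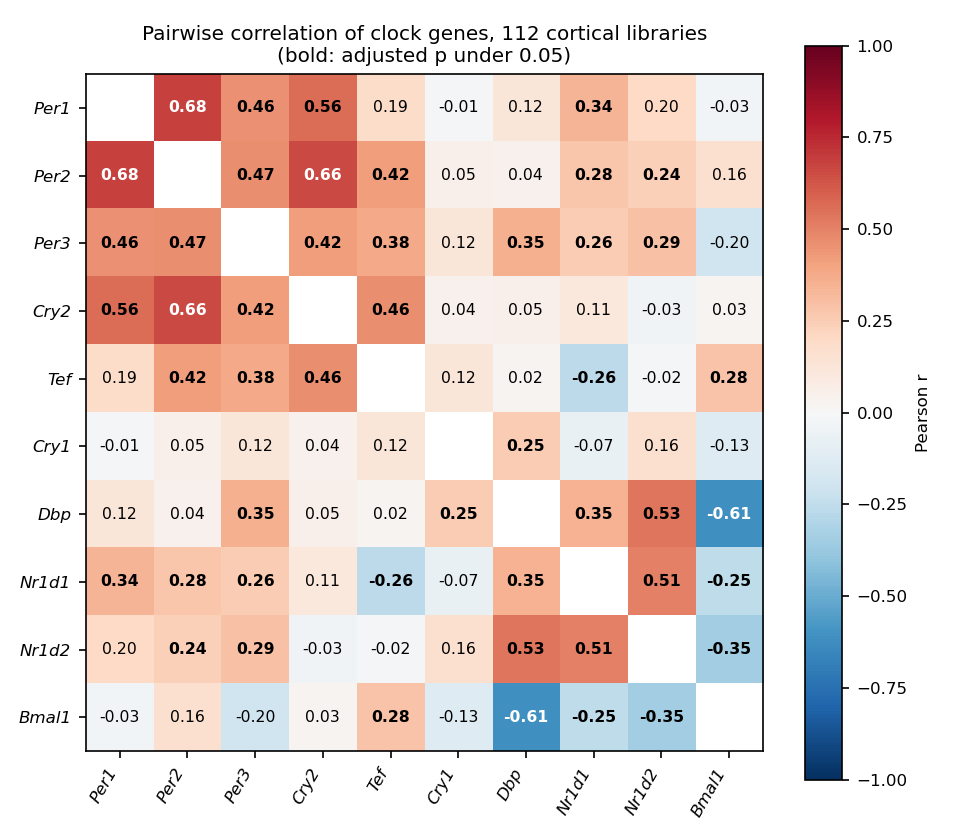
Pearson r of each of the 45 pairs of clock genes over 112 cortical libraries, printed in each square and coloured from blue at -1 to red at 1, with bold for an adjusted permutation p under 0.05. Per1, Per2, Per3 and Cry2 form a red block, Dbp, Nr1d1 and Nr1d2 another, and the row of Bmal1 is blue against Dbp, Nr1d1 and Nr1d2.

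Over all 45 pairs 20 were called positive, 4 negative and 21 neither; 34 had r above 0 and the median r was 0.16. Among the 10 genes 75.6% of pairs were positive, against 52.8% of all pairs of the tested genes. An r of 0.5 or more in size was found in 13.3% of pairs of clock genes, against 5.92% of all pairs. A principal component analysis of the 10 genes, each scaled to an SD of 1, gave a first component with positive weights for all genes but Bmal1. This first component held 32.2% of the variance, with weights of 0.44 for Per2, 0.42 for Per1, 0.42 for Per3 and 0.38 for Cry2. Nr1d2 (0.29), Nr1d1 (0.28), Dbp (0.27), Tef (0.22) and Cry1 (0.10) also had positive weights, and Bmal1 had -0.14. The second held 23.1% and set Dbp (0.43), Nr1d2 (0.37) and Nr1d1 (0.30) against Bmal1 (-0.49), Tef (-0.37), Cry2 (-0.31) and Per2 (-0.27). For rats taken at all hours of the day, the known peak times of nocturnal rodents predict a sign for 28 of the pairs: positive among Per1, Per2, Per3, Dbp, Tef, Nr1d1 and Nr1d2, and negative between each of them and Bmal1. Within a narrow span of hours the signs can differ from these. Of the 21 pairs with a positive known sign 19 were above 0, 14 were called positive and 1, Tef and Nr1d1, was called negative. Of the 7 pairs with Bmal1 5 were below 0, 3 were called negative (Dbp, Nr1d1 and Nr1d2) and 1, Tef, was called positive. The 17 pairs with no predicted sign were also mostly positive: 13 were above 0, 5 were called positive and none negative. No share of called pairs was computed over all genes. The signs among Dbp, Nr1d1, Nr1d2 and Bmal1 were those known between times of day. For Per1, Per2 and Per3 the pairwise r with Bmal1 did not pass, and for Tef the sign was the opposite. In limma with group as a covariate the slope of Per3 on Bmal1 did pass, at -0.28 ± 0.11 (SE, adjusted p = 0.0441). No hour of collection is given in the sources used here, so whether the rats were taken at different times of day was not tested.

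Set against all genes, Bmal1 fell along Dbp, and Nr1d1, Nr1d2 and Per3 rose, while Per1, Per2, Cry1, Cry2 and Tef did not pass. Slopes are log2 units of a gene per log2 unit of Dbp, from limma with group as a covariate; 4.53% of 15131 genes rose with Dbp and 3.50% fell (adjusted p under 0.05). Of the other 9 clock genes 3 rose and 1 fell, with a median slope of 0.15, against 0.01 for all genes. Bmal1 fell by 0.51 ± 0.06 (SE; adjusted p = 3.56e-09), and Nr1d2 rose by 0.39 ± 0.05 (adjusted p = 2.16e-07), Nr1d1 by 0.31 ± 0.06 (adjusted p = 0.000878) and Per3 by 0.37 ± 0.09 (adjusted p = 0.00669). Among 15 tested partners of the clock 2 rose and 3 fell. Ciart, a repressor of BMAL1 and CLOCK, rose by 0.92 ± 0.08 (adjusted p = 4.3e-15), and Bhlhe41, an E-box repressor also called DEC2, by 0.57 ± 0.06 (adjusted p = 8.8e-12). Nfil3, the repressor of D-box sequences, fell by 0.43 ± 0.11 (adjusted p = 0.0104), Clock, the partner of Bmal1, by 0.27 ± 0.06 (adjusted p = 0.00389), and Btrc, a ubiquitin ligase subunit that marks PER proteins for degradation, by 0.25 ± 0.07 (adjusted p = 0.0142). Bhlhe40, the relative of Bhlhe41, had a slope of 0.05 ± 0.11 (adjusted p = 0.805). Of 9 tested output genes 2 rose, the deubiquitinase gene Usp2 (0.18 ± 0.06, adjusted p = 0.0352) and the P450 reductase gene Por (0.14 ± 0.04, adjusted p = 0.0164).

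**Figure D4:**
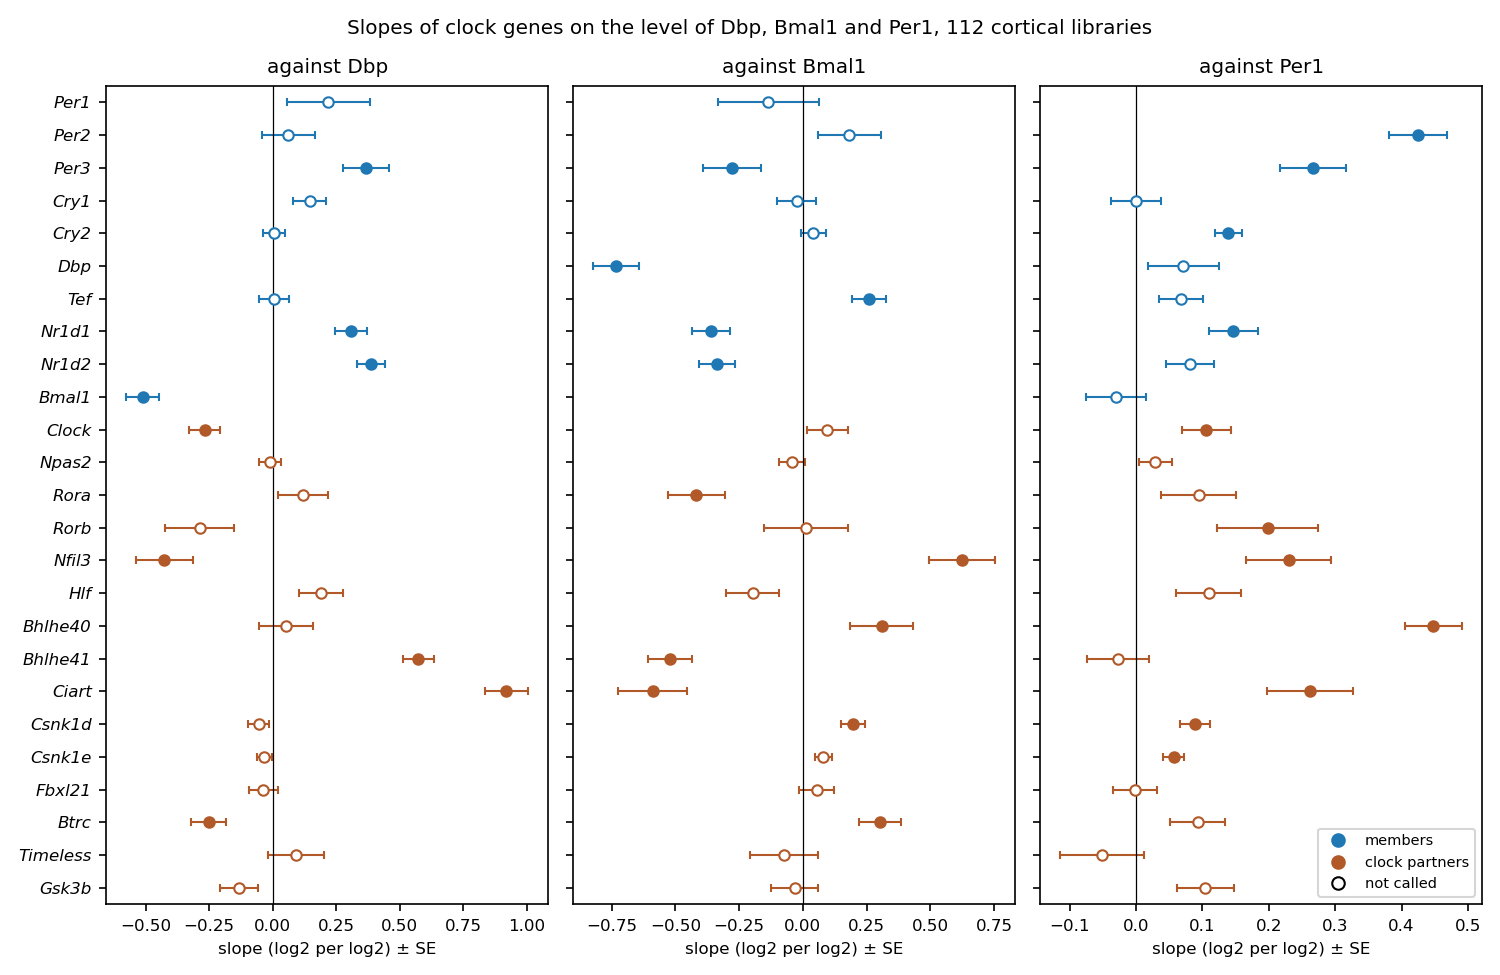
Slope of each clock gene (blue) and each tested clock partner (brown) on the level of Dbp, Bmal1 or Per1 over 112 cortical libraries, in log2 per log2 with bars of ± SE, filled where the limma adjusted p was under 0.05. Ciart and Bhlhe41 lie far to the right against Dbp (0.92 and 0.57) and to the left against Bmal1 (-0.59 and -0.52), and Per2 and Bhlhe40 lead against Per1 (0.43 and 0.45).

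Along Bmal1 Dbp, Nr1d1, Nr1d2 and Per3 fell and Tef rose. The background was wider: 23.8% of genes rose with Bmal1 and 13.2% fell, against which the counts have to be read. Of the other 9 clock genes 1 rose and 4 fell. Dbp fell by 0.73 ± 0.09 (SE; limma adjusted p = 7.28e-10), Nr1d1 by 0.36 ± 0.08 (adjusted p = 7.1e-05), Nr1d2 by 0.34 ± 0.07 (adjusted p = 9.51e-05) and Per3 by 0.28 ± 0.11 (adjusted p = 0.0441), and Tef rose by 0.26 ± 0.07 (adjusted p = 0.00116). Of the 15 partners 4 rose and 3 fell: Nfil3 (0.62 ± 0.13), Bhlhe40 (0.31), Btrc (0.30) and Csnk1d (0.20), a kinase of PER proteins, rose, and Ciart (-0.59 ± 0.13), Bhlhe41 (-0.52 ± 0.08) and Rora (-0.42 ± 0.11), an activator of Bmal1, fell. Clock, which fell along Dbp, had a slope of 0.10 ± 0.08 on Bmal1 and did not pass (adjusted p = 0.354). Output genes rose in 2 and fell in 3 of 9 cases, with Wee1 at 0.27 and Lonrf3 at -0.38, and Usp2, at -0.09 ± 0.07, did not pass (adjusted p = 0.332). Cell type markers moved with Bmal1. All 6 oligodendrocyte markers fell, with a median slope of -2.06 (summed level 10.51 to 14.32 in decimal, 10.96 to 12.09 in reassigned and 10.07 to 12.77 in E21DCD libraries, none at 0), and 4 of 5 interneuron markers rose. All 3 endothelial, 3 of 5 astrocyte, 2 of 4 microglia and 2 of 3 oligodendrocyte precursor markers also fell, and none of these rose. Of the glutamatergic markers 2 of 5 rose, and of the meningeal markers 1 of 4. None of the 6 oligodendrocyte markers was called along Dbp. With mean levels of oligodendrocyte, glutamatergic and meningeal markers as covariates the slope on Bmal1 was -0.90 for Dbp (adjusted p = 2.23e-11), -0.57 for Nr1d2 (adjusted p = 3.71e-09) and -0.51 for Nr1d1 (adjusted p = 6.24e-06). Tef no longer passed (0.19, adjusted p = 0.0559). Markers of the other cell types were not among these covariates.

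Along Per1 the other Per genes, Cry2 and Nr1d1 rose, as did 9 of 11 glucocorticoid-responsive genes; 14.8% of all genes rose with Per1 and 9.18% fell. Of the other 9 clock genes 4 rose and none fell: Per2 by 0.43 ± 0.04 (SE; limma adjusted p = 1.89e-13), Per3 by 0.27 ± 0.05 (adjusted p = 2.93e-05), Nr1d1 by 0.15 ± 0.04 (adjusted p = 0.00209) and Cry2 by 0.14 ± 0.02 (adjusted p = 9.25e-08). Of the 15 partners 7 rose and none fell. Bhlhe40, which neuronal activity is known to induce, rose by 0.45 ± 0.04 (adjusted p = 7.11e-15), Ciart by 0.26 ± 0.06 (adjusted p = 0.00163), Nfil3 by 0.23 ± 0.06 (adjusted p = 0.00568), and Rorb, Clock, Csnk1d and Csnk1e by 0.06 to 0.20. Bhlhe41, which rose along Dbp, had a slope of -0.03 ± 0.05 on Per1 (adjusted p = 0.699).

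Genes known to respond to body temperature, stress hormones and activity were set beside the 3 axes. Of all genes 4.53% rose along Dbp and 3.50% fell, against which the counts below have to be read. The shares that rose and fell were 23.8% and 13.2% along Bmal1, and 14.8% and 9.18% along Per1. Cirbp and Rbm3, RNA-binding proteins induced by mild cold, rose with Dbp by 0.47 ± 0.06 (SE; limma adjusted p = 2.32e-08) and 0.89 ± 0.11 (adjusted p = 1.1e-08). The heat shock genes Hsph1 and Hspa8 fell with Dbp by 0.32 ± 0.06 (adjusted p = 9.98e-05) and 0.20 ± 0.05 (adjusted p = 0.0125), and Hspa1b had a slope of -0.41 ± 0.17 that did not pass (adjusted p = 0.107). The signs were turned along Bmal1, where Rbm3 fell by 0.94 ± 0.14 (adjusted p = 1.69e-07), Cirbp fell by 0.35 ± 0.09 (adjusted p = 0.000575), and Hsph1, Hsp90aa1, Hspa8 and Dnajb1 rose by 0.49, 0.45, 0.43 and 0.30. Since Dbp and Bmal1 ran against each other in the same libraries (r = -0.61), the turned signs are not a separate observation. No cell type marker was a covariate in these fits. Along Per1 none of the 7 temperature genes passed in limma. None of 11 glucocorticoid-responsive genes passed along Dbp and 4 fell along Bmal1, led by Klf9 (-0.42 ± 0.09). Along Per1 9 of the 11 rose, with a median slope of 0.29, among them the kinase gene Sgk1 by 0.67 ± 0.11 (adjusted p = 1.56e-06) and Pdk4 by 0.50 ± 0.10 (adjusted p = 0.000129). Fkbp5, a classical target of the glucocorticoid receptor, had a slope of 0.02 ± 0.05 (adjusted p = 0.837). Of 12 immediate early genes, which neurons switch on within minutes of firing, 2 fell along Dbp, Fos (-0.86 ± 0.27) and Arc (-1.08 ± 0.36), and 6 rose along Bmal1, led by Fos (1.38 ± 0.31) and Npas4 (1.24 ± 0.37). Along Per1 4 rose, led by Egr2 (0.91 ± 0.16) and Fosb (0.67 ± 0.11), and 2 fell, Btg2 (-0.75 ± 0.17) and Ier2 (-0.42 ± 0.12), while Npas4, at -0.45 ± 0.18, did not pass (adjusted p = 0.0554).

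**Figure D5:**
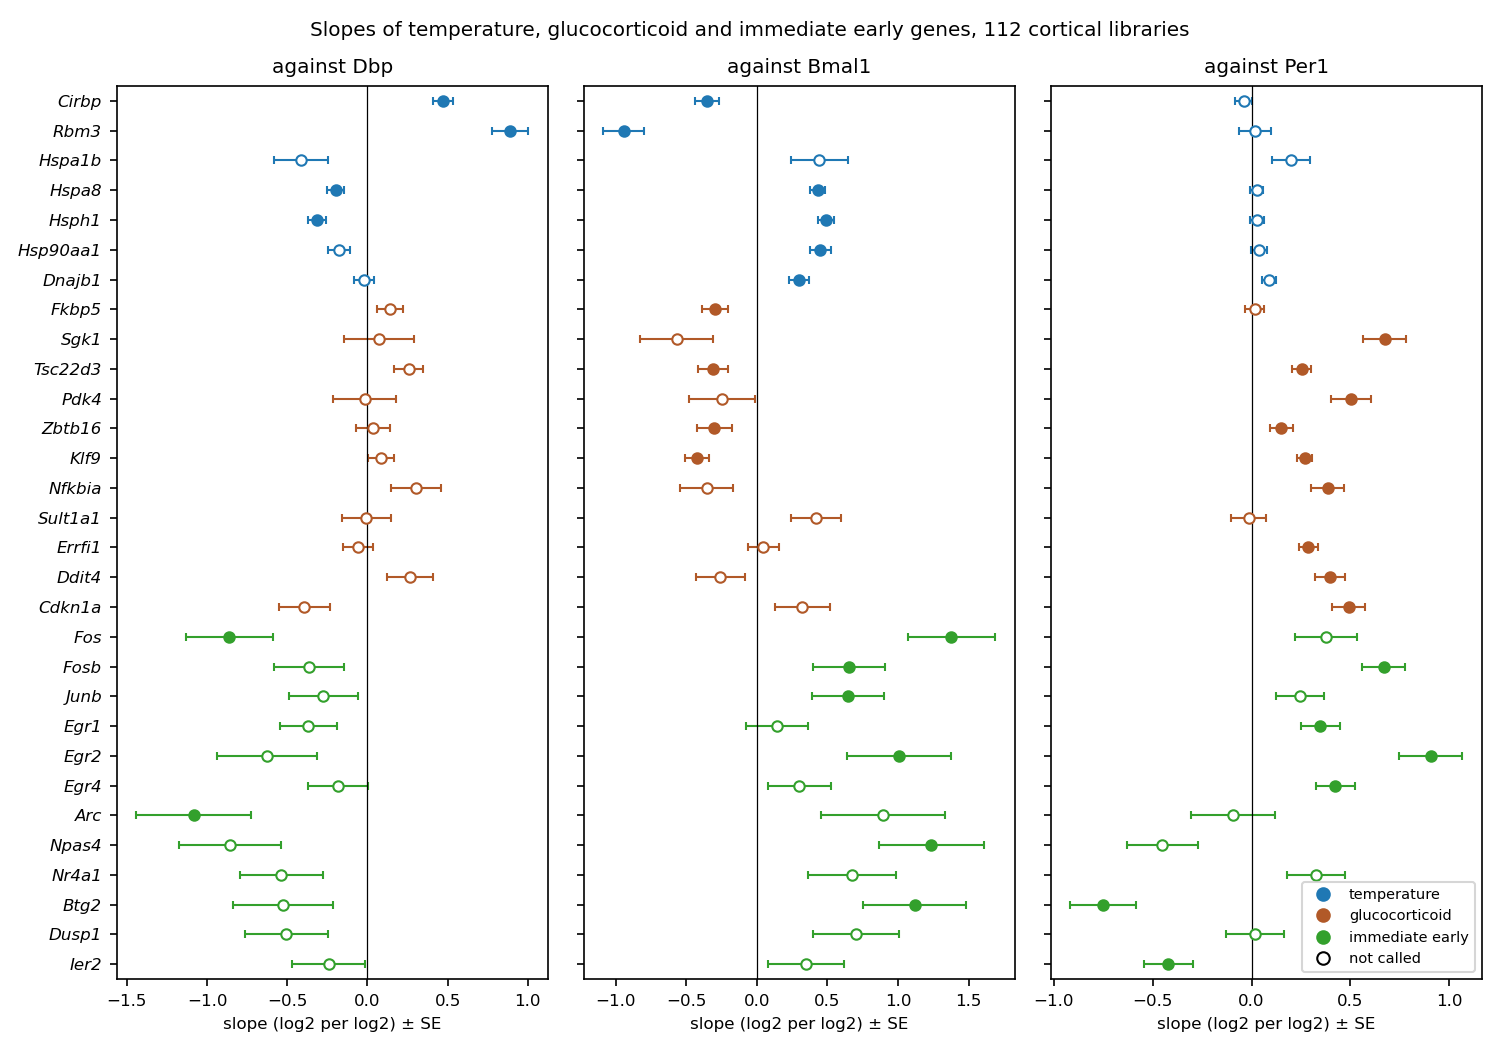
Slope of temperature-responsive (blue), glucocorticoid-responsive (brown) and immediate early genes (green) on the level of Dbp, Bmal1 or Per1 over 112 cortical libraries, in log2 per log2 with bars of ± SE, filled where the limma adjusted p was under 0.05. Cirbp and Rbm3 lie right of 0 against Dbp and left of 0 against Bmal1, and 9 of 11 glucocorticoid-responsive genes are filled and right of 0 against Per1.

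The genes most like each axis were read from Pearson r over the 112 cortical libraries, ranked over the 10815 genes whose mean reached 3. For Dbp they were Bhlhe41 (r = 0.67), Ciart (0.67) and Mt1, a metallothionein gene (0.62), so that the first 2 of the 3 are themselves clock repressors. For Bmal1 they were Stip1, a co-chaperone of heat shock proteins (0.72), Scn3b, a sodium channel subunit (0.69), and Amph, a protein of vesicle endocytosis (0.68). For Per1 they were Kdm6b, a histone demethylase (0.74), Nr4a3, an activity-induced nuclear receptor (0.73), and Zfp189, a zinc finger gene (0.72). Cry1 had no partner of that strength, the nearest being Gng7 (0.41), Pals2 (0.40) and Thap2 (0.40). Of these the Cry1 and Gng7 value was 0.51 in decimal libraries and -0.04 in E21DCD libraries, a difference that was not tested. The values of the first gene for Dbp, Bmal1 and Per1 were 0.73, 0.79 and 0.66 in decimal and 0.56, 0.58 and 0.82 in E21DCD libraries. Scn3b and Amph with Bmal1 were at 0.72 and 0.71 in decimal, and at 0.46 and 0.36 in E21DCD libraries. In the same order of groups, Ciart and Mt1 with Dbp were at 0.67 and 0.58, and at 0.80 and 0.65. Nr4a3 and Zfp189 with Per1 were at 0.68 and 0.77, and at 0.79 and 0.77. Pals2 and Thap2 with Cry1 were at 0.16 and 0.33, and at 0.54 and 0.44. None of these differences was tested.

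Between groups the clock genes differed little. In decimal against E21DCD libraries 19.2% of 15132 genes were higher and 15.0% lower (limma, adjusted p under 0.05); of the 10 clock genes 1 was higher and 2 were lower, shares near those of all genes. Bmal1 ran from 4.60 to 5.49 in decimal libraries (median 5.16) and from 5.01 to 5.57 in E21DCD libraries (median 5.29). It averaged 5.13 ± 0.20 in decimal (SD, n = 56) and 5.29 ± 0.14 in E21DCD libraries (SD, n = 45), a difference of -0.16 ± 0.04 (SE; adjusted p = 0.000282). The groups overlapped over most of their range, and the lowest libraries were decimal. Nr1d1 ran from 6.48 to 7.22 in decimal (median 6.77) and from 6.57 to 7.21 in E21DCD libraries (median 6.85), a difference of -0.10 ± 0.03 (SE; adjusted p = 0.00777), and Cry1 from 3.39 to 4.02 in decimal (median 3.67) and from 3.33 to 3.86 in E21DCD libraries (median 3.62), a difference of 0.08 ± 0.03 (SE; adjusted p = 0.0265). Both pairs of groups overlapped almost wholly. The other 7 did not pass, with Dbp at 0.08 ± 0.04 (adjusted p = 0.13) and Per3 at 0.00 ± 0.04 (adjusted p = 0.989). Of the 15 partners none was higher and 5 were lower, Bhlhe40, Gsk3b, Hlf, Clock and Npas2, by 0.05 to 0.13, and of 9 output genes 3 were higher and 2 lower. All 6 oligodendrocyte markers were also higher in decimal libraries, with a median difference of 0.79, and 3 of 4 meningeal markers were lower. All 3 blood, 4 of 5 astrocyte, 3 of 4 microglia, 2 of 3 endothelial and 2 of 3 oligodendrocyte precursor markers were higher. None of these was lower. Of 5 striatal markers 2 were higher, of 5 interneuron markers 2 were higher and 2 lower, and of 5 glutamatergic markers 1 was lower. With mean levels of oligodendrocyte, glutamatergic and meningeal markers as covariates none of the 3 clock genes passed. Bmal1 differed by -0.05 (limma adjusted p = 0.425), Nr1d1 by -0.09 (adjusted p = 0.14) and Cry1 by 0.06 (adjusted p = 0.276). Markers of the other cell types were not among these covariates. With the 7 libraries of low Gad2 included, Bmal1 (-0.15, adjusted p = 0.185) and Cry1 (0.07, adjusted p = 0.132) did not pass either. In reassigned against E21DCD libraries no gene was called (limma, 0% of 15132; 1324 at an unadjusted p under 0.05, lowest adjusted p = 0.198). The largest difference of a clock gene there was that of Per1, at 6.37 ± 0.29 in reassigned (SD, n = 11) and 6.24 ± 0.38 in E21DCD libraries (SD, n = 45), a difference of 0.13 ± 0.12 (SE; adjusted p = 0.806).

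The 18 libraries outside the cortical set showed another balance of clock genes, given as a description, since they were set apart by measured values. Cry1 lay between 4.27 and 4.84 in the 11 libraries with high Drd2 (median 4.48), against 3.33 to 4.02 in the cortical libraries, so that all 11 were above the cortical range. Tef lay between 8.53 and 9.00 there, against 8.00 to 8.62 (10 of 11 above), and Dbp between 7.37 and 7.81, against 6.33 to 7.41 (8 of 11 above). Per3 was above the range in 3. Per2 went the other way, at 4.49 to 4.92 in the 11 libraries against 4.90 to 6.32 in the cortical ones (9 of 11 below), and Nr1d1 was below the range in 6. Per1 and Nr1d2 stayed within the cortical range in all 11. The high Cry1, Tef and Dbp with low Per2 of these libraries was thus not a shift of the whole set in 1 direction.

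The 7 libraries with low Gad2 had high Dbp, and lower means than the cortical libraries for the Per genes, Bmal1, Nr1d2, Cry2 and Tef. Per1 lay between 4.44 and 5.63 (median 5.27), against a cortical median of 6.30, with 2 of 7 below the cortical range. Bmal1 lay at 1.97 in decimal replicate 15 and between 4.47 and 5.17 in the 6 E21DCD libraries, against 4.60 to 5.57 in the cortical ones, with 4 of 7 below; decimal replicate 15 thus stood far from every other library. Dbp lay between 6.98 and 7.46, with 2 of 7 above the cortical range, and Cry1, at 3.51 to 3.79, stayed within it in all 7. Cry2 was below the cortical range in 4 of 7, Per3 and Tef in 3 each, and Per2 and Nr1d2 in 1 each. Nr1d1 was below that range in 1 library and above it in 1. Decimal replicate 15 was also the lowest of the 7 in Per1 (4.44), Per2 (3.52), Per3 (2.79), Nr1d1 (6.15) and Nr1d2 (5.44), but not in Dbp (7.02). These 7 libraries turned several signs. With them included (119 libraries) Nr1d2 and Bmal1 had r = 0.41 in place of -0.35, and leaving out decimal replicate 15 alone gave -0.11 (118 libraries, adjusted permutation p = 0.289). Per1 and Bmal1 had r = 0.41 with all 7 and 0.22 without decimal replicate 15 (adjusted permutation p = 0.0303). Dbp had r = 0.20 with Nr1d2 and 0.03 with Per3 over the 119 libraries, and neither passed; without decimal replicate 15 the value with Nr1d2 was 0.29 (adjusted permutation p = 0.00332) and that with Per3 0.09 (0.388). Dbp and Bmal1 kept their sign, at -0.48 with all 7 and -0.71 without decimal replicate 15.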

How the data were processed

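RNA sequencing of prelimbic cortex from 130 rats was used, in 3 groups by the kind of identifier; of 164 samples in the labels, 34 have no column (33 without matching genotype and 1 removed, per the labels). Reads were quantified with kallisto 0.48, per the submitters' processing notes. The values of the deposited table are log2 of an estimated count plus 1 per gene, not scaled for library size, and ran from 0 to 21.9. Counts were recovered from them, scaled to 1000000 in each library, and logged again (log2) with a pseudocount of 1. Because the deposited unit is log2, with 61.5% of values between 0.5 and 30 within 0.01 of a whole number, no count model was used. The genome build is not given in the sources used here; 99.98% of the positions that could be compared (38278 symbols) equalled a gene end of the RefSeq GRCr8 table, and promoter windows and gene names are from that release.

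Cortical libraries were those with Drd2 at 6 or below and Gad2 at 4.7 or above. Genes with a mean of at least 1 in them (15132) were fitted with limma 3.58.1 in R 4.3.3 (trend, two-sided, Benjamini-Hochberg over all genes, threshold 0.05), between groups and on the level of Dbp, Bmal1 or Per1 with group as covariate. Pearson and Spearman correlations had 100000 permutations. The SD trend was lowess (frac 0.3). The scripts were tested on simulated data. Python was at 3.11.15, matplotlib at 3.10.9, statsmodels at 0.14.6, scipy at 1.17.1, pandas at 2.3.3 and numpy at 2.4.6. No columns were identical, and no 2 libraries had centred values correlated above 0.945. P-values measure the spread between rats with separate identifiers; nothing states litters or batches.

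The 10 genes, the other gene lists and the tests were chosen with earlier results of these data known. Named from other lists were the genes with the 2 largest slopes in each direction and any clock partner or output gene; a few others (Hspa8, Dnajb1, Fkbp5, Ier2) were chosen after their values were seen. Alternatives were median-of-ratios scaling (under which the median gene moved by between -0.09 and 0.85 depending on the library), a pseudocount of 0.1, other filters, depth or cell type markers as covariates, other sets of libraries and, chosen after seeing the data, leaving out decimal replicate 15. A result on 1 further gene of the lists is not reported here.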

Additional observations from a re-analysis of the deposited data

How the results depend on the processing

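No paired analysis was possible because replicate numbers were given in the order of the samples and pair none of them. Pseudocount and depth as a covariate moved no count past 1.5 times. Of 448 values of clock genes in the fits under an alternative, 403 kept direction and side of the threshold, 15 lost and 15 gained a call and 15 turned; of 585 values of pairs 497 kept both, 47 lost and 23 gained a call and 18 turned. Among values called under neither setting, 31 of 295 in the fits and 55 of 238 of pairs changed sign.

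Between decimal and E21DCD libraries 2898 genes were higher and 2270 lower; without the limit on Gad2 these were 798 and 527, and with cell type markers 539 and 139. Between reassigned and E21DCD libraries 1 gene was higher without a filter, against 0. Along Dbp 686 rose and 530 fell: 4885 and 4759 with all libraries, 3457 and 4746 without the limit on Gad2, 411 and 319 without a filter, and 316 fell with cell type markers. Along Bmal1 3599 rose and 2002 fell: 2311 rose with median-of-ratios scaling, 8424 with all libraries and 9058 without the limit on Gad2, and 973 fell with cell type markers. Along Per1 2232 rose and 1389 fell: 6766 and 3020 with all libraries, 7286 and 3270 without the limit. The slope on Dbp differed between groups for 0 genes: 4509 higher and 3567 lower with all libraries, 227 and 374 without the limit. Positive pairs numbered 20: 11 in E21DCD and 4 in reassigned libraries alone. Negative pairs numbered 4: 7 with all libraries, 1 without the limit, 0 in reassigned libraries alone. The cause was not tested.

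With all 130 libraries, which mix the 18 set apart with the cortical ones, these signs turned: slopes on Dbp of Per2 (-0.65) and Cry2 (-0.14); on Bmal1 of Per1 (0.53), Per3 (0.55), Cry1 (0.19) and Nr1d2 (0.16); on Per1 of Bmal1 (0.37); differences in slope on Dbp of Per1 (0.80), Nr1d1 (-0.38) and Bmal1 (0.79); and r of Per1 and Bmal1 (0.43), Per2 and Cry1 (-0.49), Per2 and Dbp (-0.52), Per2 and Tef (-0.14), Per3 and Bmal1 (0.51), Cry1 and Cry2 (-0.21), Cry2 and Dbp (-0.31), Cry2 and Nr1d2 (0.41), Dbp and Nr1d1 (-0.0074), and Nr1d2 and Bmal1 (0.34). Without the limit on Gad2 they were slopes on Bmal1 of Per1 (0.52), Per3 (0.48), Nr1d1 (0.0109) and Nr1d2 (0.21); on Per1 of Bmal1 (0.34); and r of Per1 and Bmal1 (0.41; 0.22 without decimal replicate 15), Per3 and Bmal1 (0.51), Cry2 and Nr1d2 (0.38), Tef and Nr1d2 (0.25), Nr1d1 and Bmal1 (0.0807), and Nr1d2 and Bmal1 (0.41). In E21DCD libraries alone Cry1 and Dbp had r = -0.11. Of the 24 called pairs, Per2 and Cry2 passed under all 13 alternatives, and Dbp and Bmal1 under 12, all but the 11 reassigned libraries alone. In those 11 an r of -0.76 did not pass.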
